A study of Mus musculus with 2 samples.

Results

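A set of thymic T cells with abundant Fxyd7 RNA was described in mice in which Ets1 was deleted by Tbx21-driven Cre. The cells were chosen in the cKO library from barcodes with at least 3000 UMIs, at least 500 detected genes and at most 10% mitochondrial UMIs. A member had at least 1 UMI of the CD3 genes Cd3d, Cd3e and Cd3g, at least 3 UMIs of Fxyd7, no UMI of Klrb1c, Izumo1r, Cd8b1 or Trav11, and under 3 UMIs of Ifit1, Ifit3 and Isg15 together. This gave 707 cells, which were 18.5% of the 3818 cKO cells past the filters (95% Clopper-Pearson interval 17.3% to 19.8%) and 21.5% of the 3281 with a CD3 UMI. Over both libraries 7320 cells passed the filters. The study loaded 1 library per genotype on a droplet 3' platform, each from YFP+ thymus cells pooled from 2 mice. The control genotype was Tbx21Cre Rosa26-YFP+ and the other Tbx21Cre Ets1F/F Rosa26-YFP+, called cKO in the titles, which name the cells thymic iNKT1. Both groups carried the Tbx21Cre and Rosa26-YFP alleles, so YFP marks cells in which Tbx21-driven Cre has acted at some stage. The labels give no age, strain or sex, and the cells of a library carry no mark of the mouse they came from. That the cells are thymic is taken from the study's description. The cKO library also held 220 barcodes without a CD3 UMI that had at least 10 UMIs of Zg16 or Fabp6, genes of gut epithelium. How these came into a thymus library, and whether any T cells came with them, was not tested.

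Fxyd7 and its relatives encode small single-span membrane proteins that associate with the sodium-potassium pump and tune its transport. Fxyd7 is best known from brain, and Fxyd1 (phospholemman) from heart and skeletal muscle. ETS1 is the founding member of the ETS transcription factor family, whose members bind DNA around a GGAA core. T-bet, the product of Tbx21, directs the iNKT1 subset of invariant natural killer T cells, which are selected on CD1d in the thymus and carry an invariant T cell receptor alpha chain made with Trav11.

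The CD3 label held for the members: 706 of 707 had at least 3 CD3 UMIs, with a median of 32 per cell. Their median depth was 6809 UMIs (range 3063 to 27857), with 2387 genes and 2.34% mitochondrial UMIs. The comparison cells named by the rule were the 1302 cKO cells with a CD3 UMI, no Cd8b1 UMI and no Fxyd7 UMI, with a median of 7271.5 UMIs. They were less clean than the members: 91.6% had at least 3 CD3 UMIs and 33.1% had at least 2 UMIs of a B cell marker list, against 21.6% of members. At least 2 UMIs of a gut epithelium list were in 8.53% of the comparison cells and 7.21% of members. For this reason most levels are also given for 493 of the comparison cells. These met every exclusion of the rule and had at least 3 UMIs of Lgals3 (galectin-3). Of them 99.2% had at least 3 CD3 UMIs, and 21.3% and 7.10% at least 2 B or gut UMIs. Lgals3 was picked for this after its values had been seen. The 2 libraries shared 29 barcodes, of which 2 were members. Doublets were not removed and no doublet caller was run. Levels are in CPM, the summed UMIs of a gene scaled to a total of 1000000 UMIs over the same cells, with exact Poisson 95% intervals, and ratios have exact conditional binomial intervals. These cover counting error alone. With 1 library per genotype there was no replicate and no test was made. Because the members were chosen in the same cells by Fxyd7, differences between them and Fxyd7-zero cells are a description.

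To show the sequence context of genes that were high together in these cells, the 250 bases before the RefSeq start site (GRCm38.p6) are printed for the 3 genes described here that the table of promoters holds and whose window lies outside annotated exons but for 7 bases of the Fxyd3 window. Capitals mark GGAA and its reverse complement TTCC, the core letters that ETS proteins bind. The Fxyd1 window is chr7:31054854-31055103, the Fxyd3 window chr7:31076698-31076947 and the Calca window chr7:114636358-114636607, and the minus strand is shown for each, 5′ to 3′. The RefSeq start of Fxyd1 lies inside the longer Fxyd1 gene model of GENCODE vM21, and its first transcribed bases match no GENCODE transcript of the gene.
Fxyd1: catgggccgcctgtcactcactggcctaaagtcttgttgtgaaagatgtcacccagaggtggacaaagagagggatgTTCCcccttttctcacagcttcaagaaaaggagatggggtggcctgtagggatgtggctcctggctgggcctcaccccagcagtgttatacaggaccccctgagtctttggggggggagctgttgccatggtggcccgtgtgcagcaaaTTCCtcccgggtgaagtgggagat
Fxyd3: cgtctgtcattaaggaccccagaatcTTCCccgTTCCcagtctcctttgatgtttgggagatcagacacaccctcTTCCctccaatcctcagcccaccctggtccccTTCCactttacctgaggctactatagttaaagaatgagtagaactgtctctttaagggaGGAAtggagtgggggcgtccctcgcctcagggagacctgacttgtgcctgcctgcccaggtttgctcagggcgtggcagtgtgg
Calca: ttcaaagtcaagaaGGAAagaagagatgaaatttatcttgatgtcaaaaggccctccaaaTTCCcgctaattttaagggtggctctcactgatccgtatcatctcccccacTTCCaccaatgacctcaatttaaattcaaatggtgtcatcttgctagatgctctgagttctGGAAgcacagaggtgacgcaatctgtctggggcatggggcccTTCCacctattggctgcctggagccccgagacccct
The core occurred 2, 5 and 5 times in these windows in either direction. Letters this short are common: 93.4% of 32851 promoter windows of the same length held GGAA or TTCC. The longer ETS letters CCGGAA (reverse complement TTCCGG, which overlaps the core) were in 12.0% of all windows and the T-box letters GGTGTGA (reverse complement TCACACC) in 3.33%. Neither was found in the 3 windows. Fxyd7, Lgi4 and Itgad had no entry in the table, and the S1pr5 window lay within annotated exons and is not printed.

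Fxyd7 spread over a wide range among the cells, without a gap at the threshold. Of the cKO T cells that met every other criterion, 751 had no Fxyd7 UMI, 148 had 1, 52 had 2, 40 had 3 and 32 had 4. Members held a median of 16 Fxyd7 UMIs, with quartiles at 8 and 28 and a maximum of 117. Members just inside the threshold thus had 3 or 4 UMIs, and the 200 cells just outside had 1 or 2. The Fxyd7 level was 2899.5 CPM in members (2853 to 2946) and 165 CPM in the cells just outside. In the control library Fxyd7 was close to absent: no cell of 3395 with a CD3 UMI met the rule, which at a limit of 3 counts allows a share of up to 0.0884%, and 4 of 3395 had any Fxyd7 UMI. Over all deposited barcodes, Fxyd7 had 5 UMIs in the control and 25214 in the cKO library. As 1 library stands for each genotype, library and genotype cannot be told apart here.

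**Figure D1:**
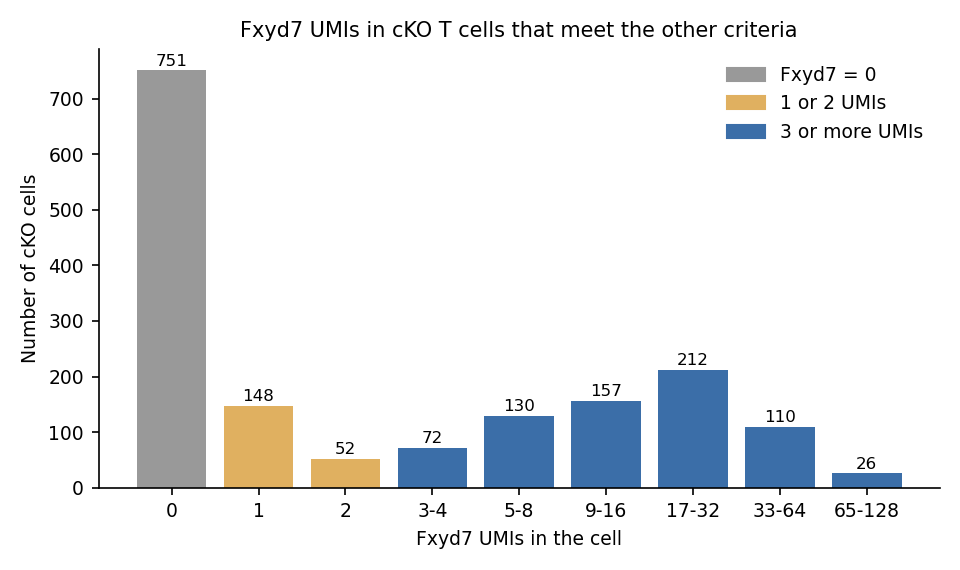
Number of cKO T cells meeting all other criteria (y axis) by Fxyd7 UMIs in the cell (x axis, bins widening to the right). Bars hold 751 cells at 0, 200 at 1 or 2 and 707 at 3 or more, with 212 cells in the bin from 17 to 32 UMIs.

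Free RNA in the droplets was gauged in 138 cKO B cells (no CD3 UMI), which should lack these genes. When each cell was thinned to 3000 UMIs, 98.0% of members and 7.97% of B cells (4.05% to 13.8%) had a Fxyd7 UMI, their median depths before the draw being 6809 and 9641 UMIs. Fxyd1 was seen in 82.0% of thinned members, 2.76% of thinned Fxyd7-zero cells and 1.45% of thinned B cells. The corresponding shares before thinning were 91.8%, 6.99% and 4.35%. Over all their UMIs, Fxyd1 was at 11.9 CPM in Fxyd7-zero cells (9.96 to 14.2) and 5.36 CPM in B cells (2.32 to 10.6), with overlapping intervals, and at 15.0 CPM (11.3 to 19.4) in the Fxyd7-zero cells with Lgals3, above the B cell interval. In the cells just outside the threshold, the ratio of Fxyd7 to Fxyd1 UMIs was 2.40, in members 2.57 and in B cells 3.88 (31 Fxyd7 and 8 Fxyd1 UMIs). How much free RNA lies behind the cells with 1 or 2 Fxyd7 UMIs was not tested. In those cells 16% had a Fxyd1 UMI after thinning, above the B cell share.

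The genes next to Fxyd7 on chromosome 7 were high in the same cells. Fxyd1 begins 5.73 kb upstream of the Fxyd7 start site in GENCODE vM21 coordinates (GRCm38). Its gene body, 31051678 to 31057199 on the minus strand, lies 210 bases from that of Fxyd7, at 31042513 to 31051467 on the same strand. Fxyd1 was at 1129 CPM in members (1100.3 to 1159), 68.9 CPM in cells just outside the threshold, 11.9 CPM in Fxyd7-zero cells, 15.0 CPM in Fxyd7-zero cells with Lgals3 and 0.139 CPM in control T cells. The ratio of members to Fxyd7-zero cells was 94.2 (79.4 to 114). Control T cells here and below are the 2913 control cells with a CD3 UMI and no Cd8b1 UMI.

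Lgi4 encodes a secreted protein known from the signalling between neurons and Schwann cells, and its start site lies 7.88 kb from that of Fxyd7 on the opposite strand. It reached 139 CPM in members, 22.3 CPM just outside the threshold, 7.27 CPM in Fxyd7-zero cells, 9.09 CPM in those with Lgals3 and 0.0463 CPM (1 UMI) in control T cells. Fxyd3, a further regulator of the pump, begins 25.2 kb away. It was at 96.1 CPM in members against 12.5, 11.1, 10.2 and 0.231 CPM in the other groups in the same order. Both genes were highest in members, with intervals clear of every other group. Lgi4 and Fxyd3 share 2764 bases on opposite strands, and since the strand setting of the counting is not given in the sources used here, reads in that stretch may not separate them.

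Not every gene around Fxyd7 was high. Hpn, a serine protease gene that begins 63.8 kb upstream, had 4 UMIs in all members together, 0.776 CPM. At the flanks the differences were small. Gramd1a, 104.4 kb upstream, was at 173.5 CPM in members and 132.6 CPM in Fxyd7-zero cells, and Usf2, 94.7 kb to the other side, at 130.0 and 102.0 CPM. Neither passed the size rule given below. The gene body of Fxyd5 (dysadherin) lies 31 bases from that of Fxyd7, on the same strand, and its RNA was detected in all groups. Fxyd5 was at 1330.2 CPM in members, 1111 CPM just outside, 881 CPM in Fxyd7-zero cells, 1092 CPM in those with Lgals3 and 858 CPM in control T cells. Its ratio of members to Fxyd7-zero cells was 1.51 (1.46 to 1.56), just past that rule, and to those with Lgals3 1.22.

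**Figure D2:**
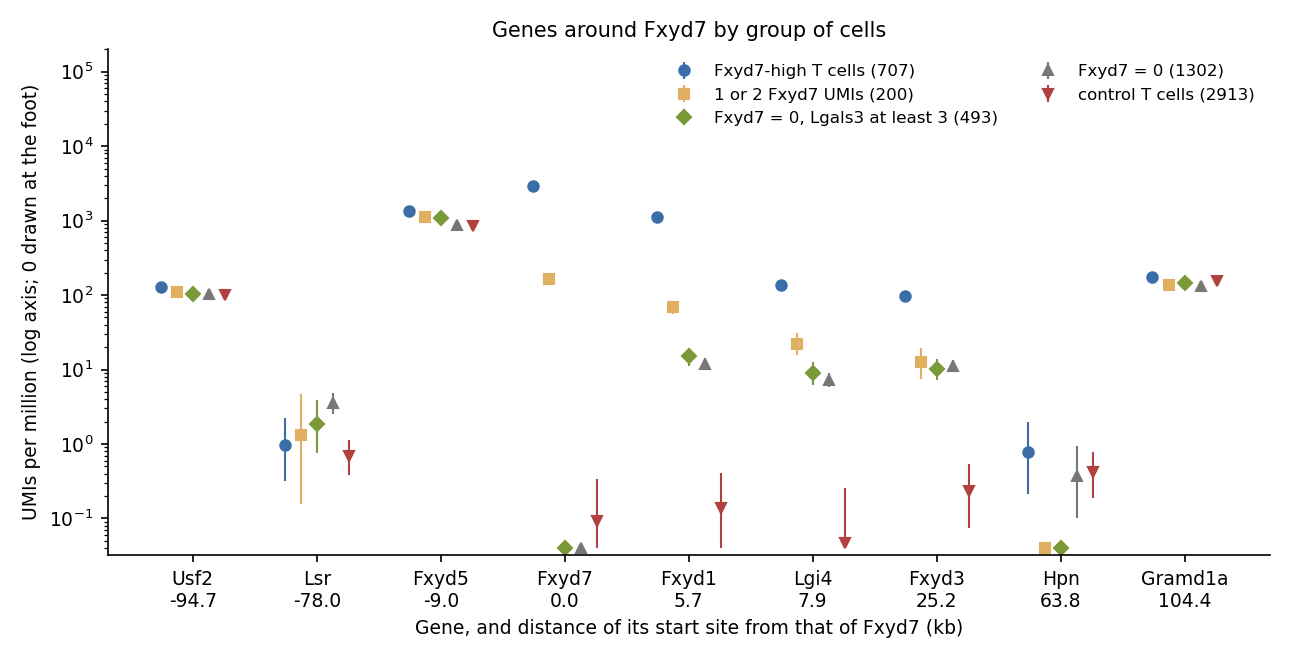
Levels (y axis, CPM, log scale, 0 drawn at the foot, bars exact Poisson 95% intervals) of genes around Fxyd7 in 5 groups of cells, ordered along the chromosome with the distance of each start site from that of Fxyd7 in kb (x axis, not to scale). Fxyd7, Fxyd1, Lgi4 and Fxyd3 stand apart in the Fxyd7-high T cells, while Usf2 and Gramd1a lie close together in all groups and Fxyd5 is 1.51 times as high in Fxyd7-high as in Fxyd7-zero cells.

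Calca, S1pr5 and Itgad, elsewhere in the genome, differed in degree. Calca encodes calcitonin and the neuropeptide CGRP. It was at 1109.7 CPM in members (1081 to 1139), 409 CPM just outside the threshold, 293 CPM in Fxyd7-zero cells, 491 CPM in those with Lgals3, 8.10 CPM in control T cells and 8.72 CPM in cKO B cells. Fxyd7-zero cKO T cells thus also held Calca well above the B cell level, and members 3.79 times as much (3.63 to 3.96). Against the cells with Lgals3 the ratio was 2.26 (2.14 to 2.38). Of the 9 genes in the list of CGRP and its receptors, 3 were tested and Calca was past the size rule. Ramp1, a part of the CGRP receptor, was at 76.3 CPM in members and 91.8 CPM in Fxyd7-zero cells.

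S1pr5, a sphingosine-1-phosphate receptor known from the exit of natural killer cells from lymphoid organs, was at 89.5 CPM in members (81.5 to 98.0). It was at 47.9 CPM just outside, 29 CPM in Fxyd7-zero cells, 49.2 CPM in those with Lgals3 and 2.18 CPM in control T cells. Itgad, the integrin CD11d, was at 82.9, 52.5, 33, 51.9 and 0.231 CPM in the same order. In both genes the cells just outside the threshold and the Fxyd7-zero cells with Lgals3 had overlapping intervals, and members lay above both. The markers did not all sit in each cell: of Fxyd1, Calca, Lgi4, S1pr5 and Itgad, 17 members had a UMI of none, 78 of 1, 200 of 2, 233 of 3, 134 of 4 and 45 of all 5.

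**Figure D3:**
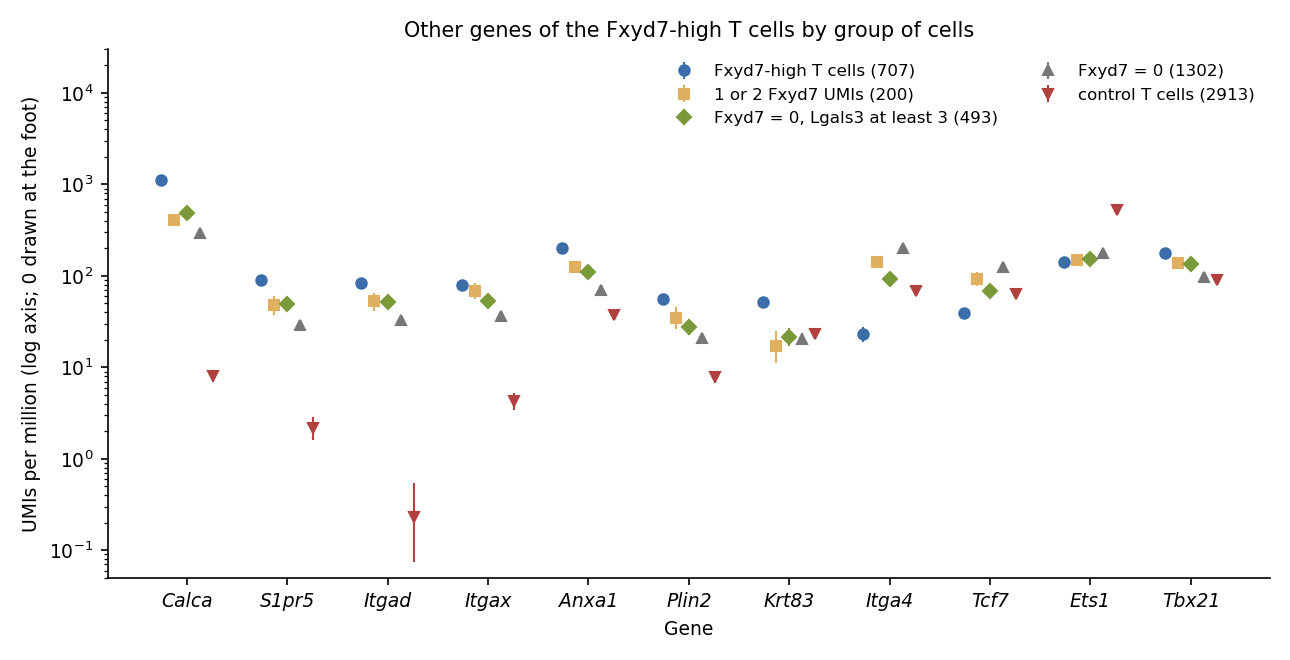
Levels (y axis, CPM, log scale, bars exact Poisson 95% intervals) of 11 genes (x axis) in the same 5 groups of cells. From Calca to Itgax the 4 cKO groups lie above control T cells, with the Fxyd7-high T cells highest; Itga4 and Tcf7 are lowest in the Fxyd7-high T cells, and Ets1 lies between 142 and 176 CPM in the 4 cKO groups.

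Genes were then compared across the transcriptome by a size rule: a ratio of at least 1.5 in either direction, at least 20 CPM in the higher group, and an interval of the ratio that excludes 1. Against the Fxyd7-zero cells 248 of 5972 tested genes were higher in members (4.15%) and 302 lower (5.06%), in all 550 (9.21%), with a median log2 ratio of 0.08. With totals that leave out mitochondrial and ribosomal protein genes, 28.7% of the genes past the rule were higher instead of 45.1%, and with median-ratio scaling 31.7%. Against the 493 Fxyd7-zero cells with Lgals3, 69 of 5877 were higher (1.17%) and 106 lower (1.80%), in all 2.98%, with a median of 0.05. An intermediate choice, the 751 Fxyd7-zero cells that met every exclusion whatever their Lgals3, gave 149 of 5995 higher (2.49%) and 269 lower (4.49%), in all 6.97%. The rule that chose the members used this contrast, so these shares serve as the background for the lists that follow and nothing is read from them.

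Beside the locus genes, Calca and S1pr5, the largest higher ratios against Fxyd7-zero cells fell on genes of varied function. Anxa1 (annexin A1) was at 201 CPM in members, 69.2 CPM in Fxyd7-zero cells and 111 CPM in those with Lgals3. Styk1, a kinase-like receptor of natural killer cells, was at 309.6, 111 and 203 CPM. Plin2, a coat protein of lipid droplets, was at 56.3, 20.9 and 27.5 CPM. Krt83, a hair keratin gene, was at 52.2, 20.6 and 21.4 CPM. These 4 genes were past the size rule in both comparisons. The cells just outside the threshold had 125 CPM of Anxa1, 218 of Styk1, 34.8 of Plin2 and 17 of Krt83, below members in each case.

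The 10 genes with the largest lower ratios against Fxyd7-zero cells were mostly genes of other cell types. Lyz1, Defa30, Defa24, Itln1, Agr2 and Lgals2 are products of gut epithelium, and Jchain and Mzb1 of antibody-secreting and other B lineage cells. Ccl4, a chemokine, and Tnfrsf4, the costimulatory receptor OX40, made up the rest. Lyz1 was at 0.776 CPM in members, 91.3 CPM in Fxyd7-zero cells and 2.94 CPM in those with Lgals3. Jchain had 4.85, 337 and 2.67 CPM. Ccl4 had 2.91, 70.5 and 2.41 CPM. Jchain, Itln1 and Ccl4 had intervals of the ratio that include 1 against the cells with Lgals3. The direction of several of these genes depended on comparison cells with few CD3 UMIs. With at least 3 CD3 UMIs in both groups (706 members and 1193 Fxyd7-zero cells) the log2 ratio was 1.70 for Jchain, 1.08 for Agr2, 0.89 for Itln1 and 0.53 for Defa24. Under the same limit Ccl4 and Tnfrsf4 were at -4.69 and -4.84. The 4 values above 0 are ratios of low levels, with Jchain at 4.85 CPM in all members. Agr2, Itln1 and Defa24 are among 10 gut markers, of which 2 reached 20 CPM under the CD3 limit. Of these 10, Zg16 alone was higher past the size rule.

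Among 15 genes of the sodium pump and FXYD family, 8 were tested against Fxyd7-zero cells: Fxyd7, Fxyd1, Fxyd3 and Fxyd5 were higher and Atp1b1 lower. The median log2 ratio of the list was 0.09. Atp1b1, a beta subunit of the pump, was at 17.1 CPM in members, 58.4 CPM in Fxyd7-zero cells and 60.2 CPM in those with Lgals3, a level 3.51 times lower in members than in the latter (2.74 to 4.56). Atp1b3, another beta subunit, was at 145, 205 and 230.0 CPM, and Fxyd4 at 18.6, 24.8 and 51.1 CPM. Of the 2 comparisons, both of these genes were lower past the rule in the one with Lgals3. Over the alternatives of processing and comparison cells given below, the log2 ratio of Fxyd4 ran from -1.45 to 0.16, so its direction differed between them. The part of gut RNA in the Fxyd4 level of the comparison cells was not tested. No pump subunit that was tested was higher in members in either comparison.

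In the list of egress and homing genes, 4 of 18 tested were higher and 9 lower against Fxyd7-zero cells (median log2 ratio -0.38), and 2 of 16 higher and 4 lower against those with Lgals3. S1pr1, the receptor that guides T cells out of the thymus, was at 26.0 CPM in members, 97.4 CPM in Fxyd7-zero cells, 64.7 CPM in those with Lgals3, 18.2 CPM in control T cells and 109 CPM in cKO B cells. Klf2, a transcription factor that drives S1pr1, was at 306, 507, 475, 549.6 and 526 CPM in the same order. Both were lower in members past the rule in both comparisons, while S1pr5 was higher in both. Cxcr6, a receptor for a tissue chemokine, was at 879.7, 373 and 615 CPM and was higher past the rule against all Fxyd7-zero cells, not against those with Lgals3.

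Of 11 integrin genes tested, 3 were higher and 2 lower against Fxyd7-zero cells. Itgax (CD11c) was at 79.6 CPM in members, 36.6 CPM in Fxyd7-zero cells, 53.0 CPM in those with Lgals3 and 4.26 CPM in control T cells. Itga1, a collagen receptor chain, was at 101, 46.9, 70.1 and 138 CPM. Itga4, the alpha4 chain of VLA-4 and of the gut homing integrin, went the other way at 22.9, 200, 92.3 and 68.6 CPM. Members thus had 4.02 times less Itga4 than Fxyd7-zero cells with Lgals3 (3.26 to 5.01). B cells of the cKO had 279.6 CPM of Itga4, and the part of B cell RNA in the Fxyd7-zero level was not tested.

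Effector genes of members were compared with Fxyd7-zero cells as a whole and then with those with Lgals3. Of 14 cytotoxic effector genes tested, 5 were higher and 2 lower in the first comparison (median log2 ratio 0.47), and none was past the rule in the second (median 0.24). Over all genes tested, 9.21% were past the rule in the first (median 0.08) and 2.98% in the second (median 0.05). With so low a share, none of 14 is not read as a result. Gzmb (granzyme B) was at 1396 CPM in members, 787 CPM in Fxyd7-zero cells, 1259 CPM in those with Lgals3 and 468 CPM in control T cells. Nkg7, a granule protein, was at 2934, 1698, 2392 and 1354 CPM, and Fasl (Fas ligand) at 144, 74.2, 103 and 106 CPM. Gzma (granzyme A) was at 239, 394, 199.5 and 378 CPM. It was lower against all Fxyd7-zero cells and, with a ratio of 1.2, on the other side against those with Lgals3.

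The T-bet list had 6 of 19 tested genes higher and 3 lower against Fxyd7-zero cells, and none of 17 higher and 2 lower against those with Lgals3. Tbx21 itself was at 178 CPM in members (167 to 190.3), 97.4 CPM in Fxyd7-zero cells, 133 CPM in those with Lgals3 and 89.7 CPM in control T cells. Eomes, its relative, was at 3.11, 27.2, 6.15 and 9.35 CPM. Zbtb16, which encodes the iNKT lineage factor PLZF, was at 37.1, 47.4, 43.1 and 50.9 CPM, with members lowest and past the rule in neither comparison. Il2rb, the receptor chain shared by interleukins 2 and 15, was at 660.4, 474, 652 and 536 CPM. It did not pass the rule in either comparison.

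Tcf7 and Tox, factors of early T cell development and of memory-like T cells, were low in members. Tcf7 (TCF-1) was at 39.0 CPM in members, 93.1 CPM just outside the threshold, 125 CPM in Fxyd7-zero cells, 67.9 CPM in those with Lgals3 and 64 CPM in control T cells. Tox was at 18.6, 41.3, 75.4, 38.0 and 49.6 CPM. In the whole list of lineage and effector factors, 5 of 33 tested were higher and 8 lower against Fxyd7-zero cells (median 0.18), and none of 30 higher and 5 lower against those with Lgals3 (median 0.13). Both Tcf7 and Tox were among the lower genes each time.

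Ets1 RNA was somewhat lower in members than in Fxyd7-zero cells, by less than the size rule (log2 ratio -0.31, -0.43 to -0.18). It was at 142 CPM in members (132 to 153), 149 CPM just outside the threshold, 176 CPM in Fxyd7-zero cells and 153 CPM in those with Lgals3, and at 528 CPM in control T cells. Which exons the floxed allele spans is not stated, so these 3' reads may lie outside the deleted part and do not show which cells had lost the gene. The log2 ratio lay between -0.60 and -0.10 over the alternatives. It was past the rule at -0.60 in the one that left 98 members, without cells holding any UMI of Cd79a, Lyz2, Cst3 or a gut marker, and its interval included 0 against the cells with the same exclusions and those with Lgals3. None of the 10 tested genes of the ETS family was past the rule in either comparison within the cKO library.

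Natural killer receptors and their adaptors were split. Of 14 receptor genes tested against Fxyd7-zero cells 4 were higher and 3 lower, and against those with Lgals3 none of 13 was higher and 4 lower. Klrc1 (NKG2A) was at 172, 78.4 and 119.5 CPM and Klra7 (Ly49G) at 48.7, 116 and 135 CPM in members, Fxyd7-zero cells and those with Lgals3. Klra and Klrc genes have near-identical copies, so their single values are uncertain. The signalling adaptor Fcer1g was at 98.6, 299 and 355 CPM, 3.60 times lower in members than in the cells with Lgals3 (3.25 to 4.0). Tyrobp (DAP12), a second adaptor of this kind, was at 13, 118 and 32.6 CPM. Both adaptors were lower in each comparison.

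Cytokine genes gave few values above the minimum: 8 of 23 were tested against Fxyd7-zero cells, with 2 higher and 1 lower. Il4 was at 97.2 CPM in members, 50.4 CPM in Fxyd7-zero cells, 64.2 CPM in those with Lgals3 and 40.4 CPM in control T cells, and was higher in both comparisons. Csf2 (GM-CSF) was at 26.6, 10.5, 18.5 and 5.78 CPM. Of the receptors, Il7r was at 312, 506, 601 and 665 CPM and Il18r1 at 149, 246, 269 and 175 CPM, and both were lower in each comparison. Socs2, a feedback inhibitor of cytokine signals, was at 259, 111, 184 and 27.6 CPM.

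Lgals3 was at 1687 CPM in members, 877 CPM in Fxyd7-zero cells and 106 CPM in control T cells, and Lgals1 (galectin-1) at 3672, 2092 and 424 CPM. Against the Fxyd7-zero cells with Lgals3, Lgals1 was not past the rule. Of 17 galectin, S100 and annexin genes tested in that comparison, Anxa1 was higher and Lgals4 lower. Gmfg, an actin regulator, was at 12.4, 87.7 and 314 CPM, and 36.6 CPM in the Fxyd7-zero cells with Lgals3. It was the 1 gene of 22 tested in the actin list that was past the rule in either comparison. Among general programmes, none of 38 oxidative phosphorylation, 12 glycolysis and 12 heat shock genes was past the rule against Fxyd7-zero cells or against those with Lgals3. Of 21 genes induced by the T cell receptor, none was higher and 3 lower against Fxyd7-zero cells. Of 11 T cell markers, Thy1 was higher (281 against 184 CPM) and Cd5 lower (76.3 against 132 CPM) than in Fxyd7-zero cells. Against those with Lgals3 none of the 11 was past the rule.

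**Figure D4:**
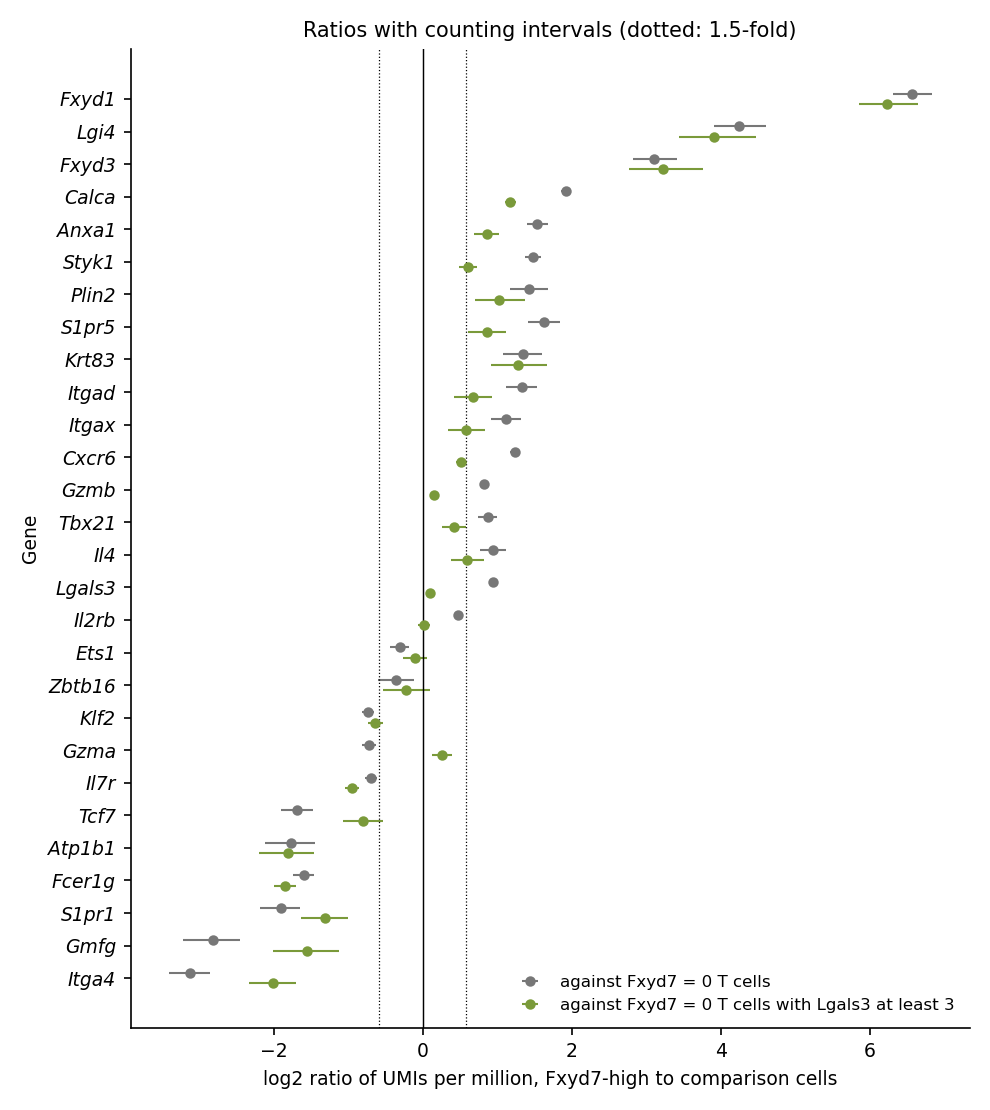
Log2 ratio of levels in Fxyd7-high T cells to Fxyd7-zero cKO T cells (grey) and to those with at least 3 Lgals3 UMIs (green) for 28 genes (y axis), with exact conditional binomial 95% intervals and dotted lines at 1.5-fold. Fxyd1, Lgi4, Fxyd3, Calca, Plin2 and Krt83 keep ratios above 2 in both comparisons, Itga4 is lowest in both, and Gzma lies on different sides of 0.

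Markers of other cell types were compared in the same way. All 10 gut epithelium markers, all 5 tested B cell markers and all 8 tested class II genes were lower in members than in Fxyd7-zero cells. For the gut markers this depended on comparison cells with few CD3 UMIs. With at least 3 CD3 UMIs in both groups no gut marker was lower and 1 of 2 tested, Zg16, was higher, with summed levels of 90.5 CPM in members and 67.2 CPM in Fxyd7-zero cells, while 2 of 2 tested B markers and 5 of 5 class II genes were lower. Without the limit the summed level of the gut list was 90.3 CPM in members, 1207 CPM in Fxyd7-zero cells, 343 CPM in those with Lgals3 and 8.84 CPM in control T cells. The summed B list was 159 CPM in members, 894.5 CPM in Fxyd7-zero cells and 189 CPM in those with Lgals3. Without cells holding at least 3 UMIs of B, class II, myeloid or gut genes, an alternative added after seeing the data, 135 genes were higher and 175 lower than in Fxyd7-zero cells, and no B, class II or gut marker was past the rule. Of the natural killer markers 7 of 9 tested were lower in members than in Fxyd7-zero cells, which keep the Klrb1c-positive cells that the rule removes from members. Against those that met the same exclusions, and against those with Lgals3, 2 of 6 were lower, Fcer1g and Tyrobp each time. Of the interferon-stimulated genes 17 of 22 tested were lower against Fxyd7-zero cells, a list the rule used, and 1 of 15 higher and none lower against those with Lgals3, which met the same interferon limit. Of 6 neural or Schwann cell markers 3 were at 0 in members, Sox10 and Ncam1 among them. Their summed level was 159.7 CPM in members, 107.5 CPM in Fxyd7-zero cells, 126.2 CPM in those with Lgals3 and 91.6 CPM in control T cells. The 1 tested marker, Mbp, made up 158 CPM of this in members and was past the rule against control T cells (log2 ratio 0.82), not within the cKO library. Cd4 was at 4.46 CPM in members, 46.2 CPM in Fxyd7-zero cells, 12.6 CPM in those with Lgals3 and 34.2 CPM in control T cells. Cd8a was at 3.69, 6.71, 4.81 and 5.69 CPM. All of these groups were chosen without a Cd8b1 UMI, so nothing is read from the low Cd8a levels.

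Fxyd1, Lgi4 and Fxyd3 were graded over the range of Fxyd7. All cKO T cells that met the exclusions were thinned to 3000 UMIs and grouped by their Fxyd7 count into 0 (873 cells), 1 to 2 (209), 3 to 5 (167), 6 to 10 (179) and 11 or more (230). Fxyd1 was at 22.1, 263, 727, 1136 and 2088 CPM in these groups in turn. Lgi4 was at 11.1, 60.6, 128, 147 and 223 CPM, and Fxyd3 at 18.7, 47.8, 79.8, 108 and 135 CPM. Each was higher at every step, although the intervals of some adjoining groups overlapped for Lgi4 and Fxyd3 above 2 UMIs. Fxyd5, the nearest gene, was not graded in this way: it was at 943, 1522, 1555, 1203 and 1062 CPM, lower above 5 UMIs than at 1 to 5 beyond the intervals. Calca was at 406, 660.3, 764, 1426 and 1620.3 CPM. S1pr5 was at 47.7, 59.0, 114, 85.7 and 106 CPM, with no order above 2 UMIs beyond the intervals.

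Among genes that were low in members, Itga4 was at 178, 73.4, 33.9, 22.3 and 7.25 CPM over the same groups. S1pr1 was at 87.1, 54.2, 39.9, 24.2 and 10.1 CPM and Tcf7 at 109, 76.6, 29.9, 22.3 and 31.9 CPM. Ets1 was at 149, 172, 148, 147 and 132 CPM, with overlapping intervals throughout, and Tbx21 at 119, 167, 152, 181 and 188 CPM. Across the 707 members, each counted after thinning, the Spearman correlation with Fxyd7 was 0.59 for Fxyd1. It was 0.17 for Lgi4 and Calca, 0.15 for Fxyd3, 0.05 for S1pr5 and 0.03 for Itgad. The cells share 1 library and counts are sparse, so these values are descriptions.

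**Figure D5:**
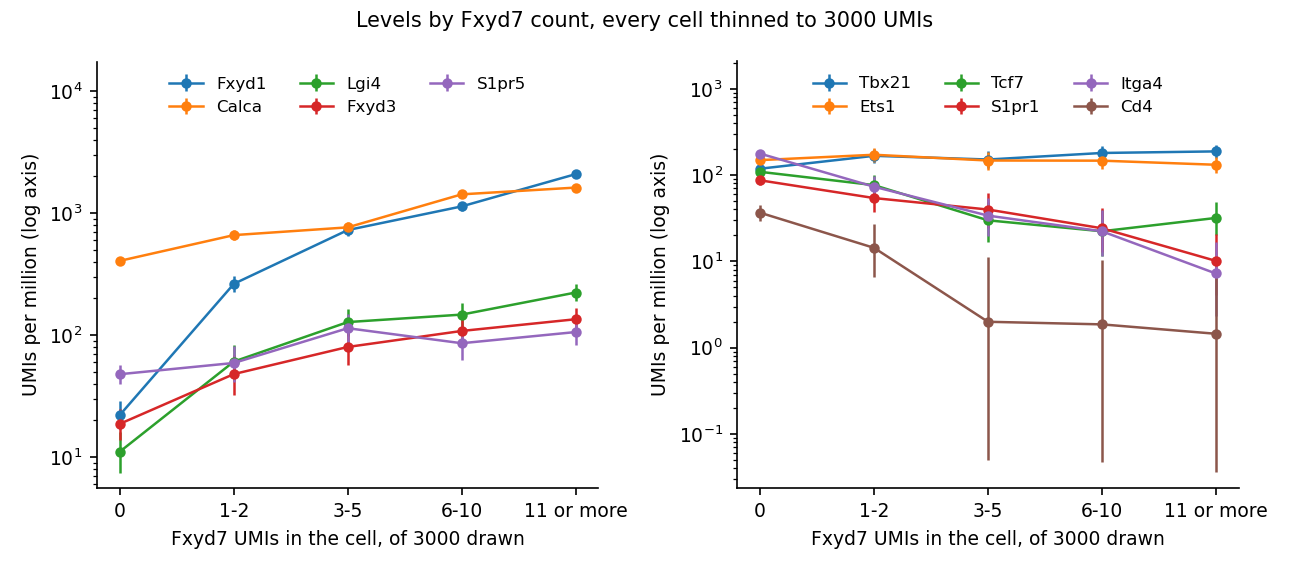
Levels (y axes, CPM, log scale, bars exact Poisson 95% intervals) in cKO T cells thinned to 3000 UMIs, grouped by Fxyd7 UMIs among those drawn (x axes). Fxyd1 goes from 22.1 to 2088 CPM and Itga4 from 178 to 7.25 CPM, while Ets1 stays between 132 and 172 CPM.

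Calca was uneven among the members, with a median of 2 UMIs per cell, an upper quartile of 9 and a maximum of 133. A split chosen after its values had been seen set 163 members (23.1%) with at least 5 Calca UMIs after thinning against 307 (43.4%) with none, leaving 237 between. Of 6178 genes tested, 166 were higher in the Calca-high members (2.69%) and 151 lower (2.44%), in all 5.13%, and Calca itself chose the groups. Fxyd7 was at 3599 CPM in Calca-high and 2821 CPM in Calca-zero members, and Fxyd1 at 1382 and 1081 CPM, neither past the size rule. Ccl5, a chemokine gene, was at 503 CPM in Calca-high members (442 to 570.0) and 1577 CPM in Calca-zero members (1496 to 1660). Gzma was at 24.5 and 425 CPM, Klf2 at 119 and 431 CPM and Il7r at 229 and 375 CPM. Itgax was higher in Calca-high members at 147 against 70.6 CPM. S1pr5 was at 73.6 and 101 CPM with overlapping intervals, and Tbx21 at 198 and 164 CPM likewise. Ccl5, Gzma, Klf2 and Il7r were thus lower in Calca-high members past the rule. Markers of other cells moved with them. Class II genes summed to 51.1 CPM in Calca-high and 287 CPM in Calca-zero members, with 4 of 5 tested lower in Calca-high members, among them Cd74 at 14.3 against 113 CPM. The B list summed to 117 and 178 CPM with none of 1 tested past the rule, though Igkc, outside the list, was lower at 36.8 against 104 CPM. The gut list summed to 96.1 and 118 CPM with Zg16 lower, and Trdc was at 2.04 against 40.2 CPM. The part of such cells in the difference was not tested.

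The T cell receptor segments seen in members were mixed. A V alpha segment was read in 72 members, with 36 segments seen, and a V beta segment in 116, with 16 seen. Trbv13-2 was in 38 of the 116 (32.8%). Trbv13-2, Trbv29 and Trbv1, the beta segments typical of mouse iNKT cells, together made up 58.6% in members (49.1% to 67.7%), 45.6% in Fxyd7-zero cells and 55.6% in control T cells. The interval of the members overlaps that of control T cells and that of Fxyd7-zero cells (39.6% to 51.7%). Since the rule removed Trav11, it was counted again without that criterion: 40 of 112 Fxyd7-high cells with a V alpha read had Trav11, or 35.7% (26.9% to 45.3%). The share was 28.2% in the Fxyd7-zero cells under the same other exclusions and 32.6% in control T cells. Trav11 has near-identical copies, 3' reads reach few V segments, and a member without a Trav11 UMI may still carry the segment.

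Against the control T cells, 997 of 5954 tested genes were higher in members (16.7%) and 464 lower (7.79%), in all 24.5%, with a median log2 ratio of 0.20. Without mitochondrial and ribosomal protein genes in the totals 42.5% of genes past the rule were higher instead of 68.2%, and with median-ratio scaling 45.1%. All 6 markers of the members were higher, and Ets1 was lower. Of the members of the lists above, 12 of 16 tested galectin, S100 and annexin genes and 7 of 11 integrin genes were higher, and 14 of 22 genes induced by the T cell receptor were lower. These differences cover genotype, library and cell type at once, which cannot be told apart.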

How the data were processed

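The authors deposited matrices of whole-number UMI counts per gene and barcode for the 2 libraries, made with Cell Ranger 2.1.1 on mm10 per the submitters' processing notes; the matrix headers name software version 3.0.0, and this was not resolved. For annotation, counting strand and aligner settings nothing is given in the sources used here. Gene positions were taken from GENCODE vM21, where 99.6% of feature IDs were found. From the counts, UMIs were summed over each group of cells and divided by the group's total (CPM). Ratios had 0.5 UMIs added to both sums. Scripts used Python 3.11.15, numpy 2.4.6 and scipy 1.17.1. The intervals were tested on simulated Poisson counts alone, which leave out spread between cells. Thinning drew 3000 UMIs per cell without replacement (seed 1).

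The members and gene lists were chosen with earlier results of these data known. Genes were named by a rule: the 6 markers, 8 lineage genes, the 10 highest and 10 lowest ratios among genes past the size rule that reach 50 CPM (each against Fxyd7-zero cells and, after the values had been seen, also against those with Lgals3), and up to 4 genes per list. Atp1b3, Fxyd4, Ramp1, Cxcr6, Tcf7, Il7r, Mbp, the genes of the locus plot and those of the Calca split were named after their values had been seen. Some genes of the lists and of the locus are not reported here. Every sequence comes from the RefSeq promoter table.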

Additional observations from a re-analysis of the deposited data

How the results depend on the processing

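No paired analysis was possible because each genotype has 1 library. Of 58 gene ratios to Fxyd7-zero cells recomputed under 19 alternatives, 2 of them added after seeing the data, 52 were at least 1.5-fold with an interval excluding 1, and 9 of these changed direction in some alternative. The log2 ratio of Fxyd1 stayed between 6.17 and 6.80, of Lgi4 between 3.90 and 4.45, of Calca between 1.18 and 2.04, of S1pr5 between 0.86 and 1.98 and of Itgad between 0.67 and 1.42, the lowest for the latter 3 being against cells with Lgals3. With the same exclusions in both groups 149 genes were higher, and Gzma was at 0.13. With at least 3 CD3 UMIs, Jchain was at 1.70, Itln1 at 0.89, Agr2 at 1.08 and Defa24 at 0.53, and none of these genes was past the size rule there. Without cells with any UMI of Cd79a, Lyz2, Cst3 or a gut marker, 98 members were left and 486 genes were higher; Gzma was at 0.94, Lgals2 at 0.18, and Defa30, Itln1, Mzb1, Agr2 and Defa24, where nearly no counts remained, at 1.41. Without cells with at least 3 UMIs of B, class II, myeloid or gut genes (added), 135 genes were higher and 175 lower, with Jchain at 1.3, Itln1 at 1.52, Mzb1 at 0.19, Agr2 at 0.37 and Defa24 at 0.25. Against Fxyd7-zero cells with Lgals3 (added), 69 were higher and 106 lower, with Gzma at 0.26, Jchain at 0.82 and Ccl4 at 0.24. With totals lacking mitochondrial and ribosomal protein genes 457 genes were lower than in Fxyd7-zero cells, and 663 higher and 898 lower than in control T cells. With median-ratio scaling the counts were 159 higher, and 579 and 704 against control. A ratio of at least 2 left 45 higher and 191 lower, and 347 and 210 against control. A minimum of 50 CPM left 136 and 127, and 575 and 250 against control. The cause of each change was not tested.

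Depth limits calls per cell: after thinning, 30.3% of members had a UMI of Lgi4, 21.2% of S1pr5 and 19.1% of Itgad, and a cell without one is not shown to lack the RNA. Both groups of cKO cells come from 1 library of pooled mice, so no value here speaks of spread between mice. The Fxyd7 threshold cuts a continuous range, and 72 members lie at 3 or 4 UMIs.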

Other observations

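Fxyd7 was not confined to cells kept by the rule. Of all cKO cells with a CD3 UMI, 1093 of 3281 (33.3%) had at least 3 Fxyd7 UMIs, and the exclusions removed 173 of these for Klrb1c (NK1.1), 140 for the interferon genes, 63 for Trav11, 50 for Cd8b1 and 37 for Izumo1r, with overlap between criteria. The T cell classes that follow leave out cells with a Cd8b1 UMI unless Cd8b1 is named, so their counts are smaller. Among Klrb1c-positive T cells 166 of 342 (48.5%, 43.1% to 54.0%) had at least 3 Fxyd7 UMIs, and among Trav11-positive T cells 57 of 126 (45.2%, 36.4% to 54.3%). The share was 34.4% in interferon-responding T cells, 16.5% in T cells with at least 3 Trdc UMIs (a gamma-delta receptor gene), 9.71% in Izumo1r-positive and 8.59% in Cd4-positive T cells, and 4.4% in T cells with at least 3 Cd8b1 UMIs. It was 48.6% in T cells with at least 3 Lgals3 UMIs and 4.65% in those with none. None of 138 B cells reached 3 UMIs, which at a limit of 3 counts allows a share of up to 2.17%, and none of 220 gut epithelium barcodes. Of 36 cells with a UMI of Ncr1, a natural killer receptor, and none of CD3, 4 did (11.1%, 3.11% to 26.1%). The median depths of these classes ran from 5536.5 to 10844.5 UMIs.

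Members differed from control T cells in programmes that were even within the cKO library. Of 38 oxidative phosphorylation genes tested 17 were higher in members than in control T cells and none lower (median log2 ratio 0.53, against 0.20 for all genes tested). Of 12 heat shock genes none was higher and 4 lower (median -0.36). Over all genes tested against control T cells, 16.7% were higher and 7.79% lower. With median-ratio scaling the counts over all genes went from 997 higher and 464 lower to 579 and 704. These 2 lists were not counted again under that scaling. Genotype and library cannot be told apart in these values.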
